A study of Mus musculus with 2 samples.

Results

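Myelinating Schwann cells wrap peripheral axons in myelin, and in a dorsal root ganglion (DRG) they lie along the axons that leave the sensory neurons. They were selected by their RNA: a barcode needed over 300 genes, at least 1000 unique molecular identifiers (UMIs), a mitochondrial share of up to 22%, and at least 5 UMIs of *Ncmap* and *Mag* per 10000 UMIs with at least 2 such UMIs in all. It also had to hold under 20 *Fabp7* UMIs per 10000 and no more than 2 UMIs of any single one among *Scn7a*, *Prph*, *Col1a1*, *Rgs5*, *C1qa* and *Flt1*, which mark non-myelinating Schwann cells, neurons, fibroblasts, mural cells, macrophages and endothelial cells. Of 16882 barcodes that met the limits on genes, UMIs and mitochondrial share, 2992 were myelinating Schwann cells, 1480 of 8366 in replicate 1 and 1512 of 8516 in replicate 2.

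The samples were 2 suspensions of L4 and L5 DRGs from C57BL/6 mice, replicates 1 and 2, both from uninjured females of 3 months. Both are one condition, so myelinating Schwann cells could be set against other cells of the same suspensions but not against another state of the animal. The number of animals behind each sample is not given in the sources used here, so the p-values measure the spread between 2 samples, which may be partly technical. The samples held 119101743 and 128668771 UMIs in total, and they differed by more than sampling noise, with a chi-square of 17.2 per degree of freedom over 21764 genes.

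A myelinating Schwann cell builds its sheath by extending and compacting its own membrane, in which proteins such as *Pmp22* and *Mbp* take part. Cytoplasm remains in paranodal loops, in incisures and in bands under the outer (abaxonal) membrane, and finger-like microvilli of the cell contact the node of Ranvier. The transcription factor *Egr2* drives the myelin genes together with *Sox10*, and the sheath needs much cholesterol and galactolipid.

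Myelinating Schwann cells made up 17.7% of the barcodes in replicate 1 (exact binomial 95% interval from 16.9% to 18.5%) and 17.8% in replicate 2 (16.9% to 18.6%). Such intervals cover counting error only, and dissociation may retain cell types unequally, so the shares describe the suspensions and not the ganglion. The cells held a median of 5164 UMIs and 2216 genes in replicate 1 and of 5598 UMIs and 2362 genes in replicate 2, with median mitochondrial shares of 9.03% and 8.02%. Near the lower limit of *Ncmap* and *Mag*, 40 and 34 members had between 5 and 6 UMIs per 10000, and 25 and 25 barcodes that otherwise qualified had between 4 and 5. The median member had 18.8 and 18.6 such UMIs per 10000, far above that limit. No member barcode occurred in both samples, although 39 of the barcodes that met the common limits did.

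The name was checked with *Prx* and *Cldn19*, which the selection did not use. *Prx* encodes periaxin, which links the sheath to the basal lamina, and *Cldn19* a tight junction protein of myelin. At an equal depth of 1000 UMIs per cell, 65.3% and 62.4% of the members of replicates 1 and 2 had a *Prx* UMI, against 1.05% and 0.941% of satellite glial cells (SGCs). With all UMIs the shares were 97.1% and 97.7% of members and 10.5% and 12.5% of SGCs, whose median depth was 15954 and 16668 UMIs. The shares with a *Cldn19* UMI at equal depth were 44.5% and 46.4% of members and 0.426% and 0.489% of SGCs, and with all UMIs 92.6% and 94.1% and 3.87% and 5.46%. With all UMIs both markers were thus found in most members and in few SGCs. A selection on *Prx* and *Cldn19* in place of *Ncmap* and *Mag* found 1566 and 1585 cells and held 96.6% of the members of either sample.

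Members were compared with 3 other glial classes of the same suspensions, each selected by marker UMIs. These were 737 non-myelinating Schwann cells (*Scn7a*), which ensheathe thin axons without myelin, 5240 SGCs (*Fabp7*), which wrap the neuronal cell bodies, and 900 glial cells with *Pou3f1*, a transcription factor of Schwann cells that precede or begin myelination. The last were selected without a limit on *Fabp7*. In them 9 other markers of SGCs summed to 2466 and 2584 CPM, between members (484 and 506) and SGCs (5382 and 5469). *Pou3f1* itself did not set the *Pou3f1*-positive glia apart from members, which held 747 and 849.9 CPM of it against 856 and 811. All 3 other classes were selected to hold under 2 UMIs of *Ncmap* and *Mag* per 10000. Cells with more of these myelin markers were thus left out of them, and the part of this in their levels of other myelin genes was not tested. The UMIs of all cells of a class were summed per sample, and the 8 sums were fitted together with edgeR's quasi-likelihood test, with p-values adjusted by the Benjamini-Hochberg method over 15681 genes. A gene was called higher or lower at an adjusted p under 0.05 with a log2 fold change of at least 1 in size. Levels are CPM, UMI counts scaled to a common TMM-adjusted library size, given for replicate 1 and then replicate 2, while levels within clusters and by depth are CPM of all UMIs without TMM, and log2 fold changes are given ± standard error. Where values or counts stand for all comparisons, they follow the order non-myelinating Schwann cells, SGCs and *Pou3f1*-positive glia. The 10 genes that selected any class were left out of the tests, and the same 2 sums of members entered all 3 comparisons, so these are not independent of one another.

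Against non-myelinating Schwann cells, 1418 genes (9.04% of those tested) were called higher in myelinating Schwann cells and 1801 (11.5%) lower, 20.5% in either direction. Against SGCs, 1935 (12.3%) were higher and 2580 (16.5%) lower, 28.8% in either direction. Against *Pou3f1*-positive glia 1222 (7.79%) were higher and 1487 (9.48%) lower, 17.3% in either direction. In all 3 comparisons 709 genes (4.52%) were higher and 772 (4.92%) lower. The median log2 fold change of all genes was 0.03, -0.01 and 0.00. Median mitochondrial shares were 9.03% and 8.02% in members but 4.37% and 3.94% in non-myelinating Schwann cells. They were 8.67% and 7.98% in SGCs and 7.31% and 7.03% in *Pou3f1*-positive glia. The part of this difference in the calls was not tested.

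Transcripts of compact myelin were high in myelinating Schwann cells. *Pmp22*, whose gene dosage causes the most common inherited demyelinating neuropathy, stood at 7065 and 7617 CPM in members against 733 and 752 in non-myelinating Schwann cells, a log2 fold change of 3.30 ± 0.06 (adjusted p = 1.3e-14, edgeR's quasi-likelihood test). *Mbp*, which zips the inner faces of the membrane together, stood at 6917 and 7335 against 723 and 708 (3.32 ± 0.06, adjusted p = 1.3e-14, edgeR). Both were also called higher against SGCs (4.37 and 4.33) and against *Pou3f1*-positive glia (3.58 and 3.53). SGCs held 356 and 355 CPM of *Pmp22* and 348 and 362 of *Mbp*, and *Pou3f1*-positive glia 621 and 609 and 607 and 626. Both samples of the members thus lay far above every sample of the other classes. The droplets without a cell, which show the free RNA of the suspension, held 1108 and 1139.8 CPM of *Pmp22* and 1250.1 and 1199.6 of *Mbp*, more than any class other than the members did.

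Of the 10 genes listed for compact myelin, the same 6 were called higher in each of the 3 comparisons, *Mbp*, *Pmp22*, *Pmp2* and *Mal* among them, and the same 2 lower. The median log2 fold change of the list was 1.54 against non-myelinating Schwann cells, 2.15 against SGCs and 2.15 against *Pou3f1*-positive glia. The lower 2 were *Tspan2*, a tetraspanin better known from oligodendrocytes, and *Lgals3*, a galectin. The latter was also among the 10 genes, named further on, that fell furthest against non-myelinating Schwann cells. *Lgals3* stood at 3.13 and 4.68 CPM in members and 332 and 316 in non-myelinating Schwann cells, a log2 fold change of -6.36 ± 0.32 (adjusted p = 5.1e-10, edgeR).

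**Figure D1:**
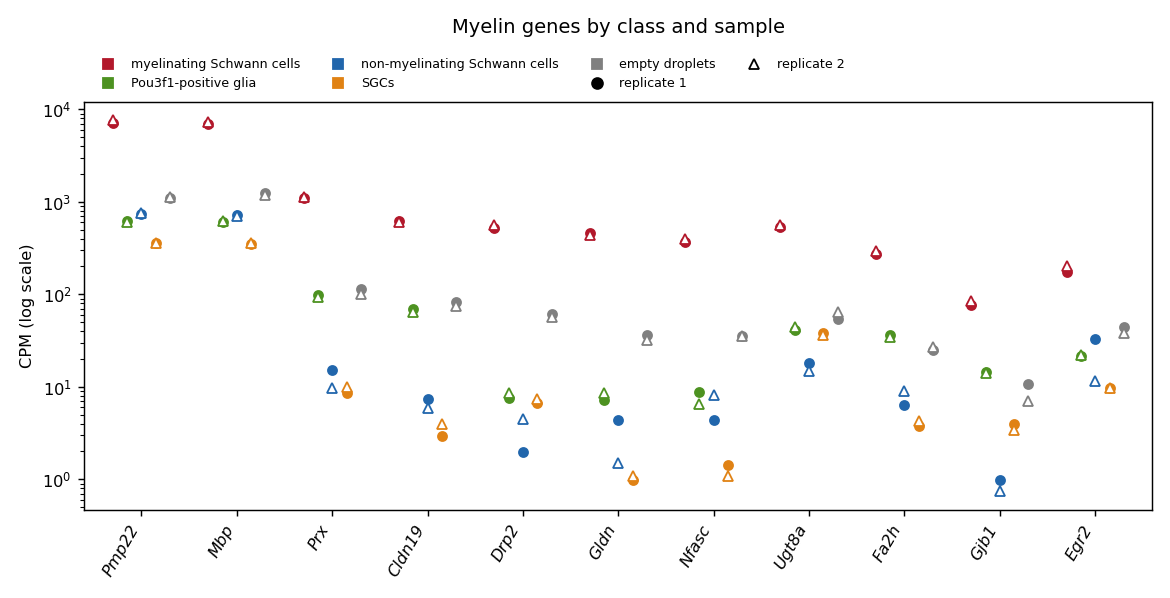
Levels of 11 myelin genes in the summed UMIs of 4 glial classes and of droplets without a cell, in CPM on a log scale, with 1 point per class and sample (filled circle, replicate 1; open triangle, replicate 2). For each of the 11 the myelinating Schwann cells lie highest in both samples, above the empty droplets too, from 7065 and 7617 CPM for *Pmp22* to 77.4 and 85.6 CPM for *Gjb1*.

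Genes of non-compact myelin were high in members as well. *Nfasc*, which in Schwann cells gives the adhesion protein of the paranodal loops (chr1:132564690-132741797, mm10), stood at 368 and 393 CPM in members, 4.42 and 8.16 in non-myelinating Schwann cells, 1.43 and 1.10 in SGCs and 8.69 and 6.45 in *Pou3f1*-positive glia. Its log2 fold changes were 5.86 ± 0.15, 8.23 ± 0.11 and 5.64 ± 0.12 (adjusted p of 3.6e-13, 2.0e-16 and 9.2e-14, edgeR). *Gjb1*, the connexin of the gap junctions across the loops, stood at 77.4 and 85.6 in members against 0.983 and 0.742, 3.98 and 3.44 and 14.6 and 14.1 in the same order of classes. *Mpp6*, a scaffold of the basal membrane of these cells, followed with 685 and 654 against 26.0 and 28.9, 32.6 and 35.8 and 194 and 142. All 3 were called higher in each comparison.

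Of the 16 such genes found in the files, 9 were called higher and 1 lower against non-myelinating Schwann cells, 10 and 0 against SGCs, and 9 and 0 against *Pou3f1*-positive glia, with medians of 1.70, 1.68 and 1.09. The tight junction scaffold *Tjp1* was higher in all 3 (2.14, 2.02 and 1.88). *Cdh1*, the E-cadherin of autotypic junctions between the loops, was higher only against non-myelinating Schwann cells (3.13 ± 0.15), while its 164 and 202 CPM lay near the 163 and 163 of SGCs. The gene called lower was *Cadm4*, an adhesion protein that faces the axon, at 168 and 159.9 against 325 and 346 CPM in non-myelinating Schwann cells.

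At the node of Ranvier, *Gldn* encodes gliomedin, which the microvilli present to the axon to gather sodium channels. It stood at 459 and 443 CPM in members and at 4.42 and 1.48, 0.989 and 1.10 and 7.21 and 8.52 in the other classes, a difference of 163-fold, 428-fold and 57.5-fold. The first of these rests on few counts: the log2 fold change of 7.35 became 8.24 without non-myelinating replicate 1 and 6.67 without replicate 2. *Nrcam*, its partner at the node, was called higher in each comparison too (3.18, 1.16 and 1.88). The cytoskeletal linkers of microvilli did not rise with them throughout. *Ezr*, ezrin, was higher only against non-myelinating Schwann cells (1.39), *Msn* and *Rdx* were not called in any comparison, and *Slc9a3r1*, a linker known as EBP50, was lower in all 3, with 52.5 and 51.0 CPM in members against 590.0 and 596 in SGCs. Of the 10 genes of this list 4, 3 and 2 were called higher and 1, 2 and 2 lower, with medians of 0.30, 0.42 and 0.28.

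Under the abaxonal membrane, *Prx* and *Drp2* encode the partners that, with dystroglycan (*Dag1*), tie the sheath to the basal lamina. *Drp2* (chrX:134404551-134456573) stood at 528 and 562 CPM in members and 1.97 and 4.45, 6.74 and 7.40 and 7.58 and 8.52 in the others, with log2 fold changes of 7.33 ± 0.15, 6.27 ± 0.08 and 6.08 ± 0.11 (adjusted p of 3.5e-14, 1.8e-16 and 1.9e-14, edgeR). The first became 8.11 without non-myelinating replicate 2. *Prx* stood at 1111 and 1139 CPM against 15.2 and 9.65, 8.59 and 9.89 and 98.9 and 93.1. *Dag1* itself was as high in *Pou3f1*-positive glia (923 and 884) as in members (871 and 923), and was called higher only against the other two classes. *Utrn*, which encodes utrophin, was higher against SGCs and *Pou3f1*-positive glia (2.11 and 1.25), and *Dmd*, which encodes the related dystrophin, was not called. Of the 13 genes of the list 5, 6 and 6 were called higher and 2, 0 and 0 lower, with medians of 0.29, 0.65 and 0.58. The 2 lower ones, *Sgcd* and the integrin *Itgb4*, were lower against non-myelinating Schwann cells (-1.22 and -1.32) but higher against *Pou3f1*-positive glia (1.16 and 1.07), and *Itgb4* was higher against SGCs as well.

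Since *Prx*, *Cldn19* and *Gldn* were high together, the 250 bases before their transcription starts were read from RefSeq promoters on GRCm38.p6 (mm10) and are shown 5′ to 3′ on the strand of the gene. They are chr7:27499074-27499323 for *Prx*, chr4:119255191-119255440 for *Cldn19* and chr9:54286236-54286485 for *Gldn*, all on the plus strand. Capitals mark matches to GTGGGNG, the core of sites of the EGR family to which *Egr2* belongs, on either strand.
Prx: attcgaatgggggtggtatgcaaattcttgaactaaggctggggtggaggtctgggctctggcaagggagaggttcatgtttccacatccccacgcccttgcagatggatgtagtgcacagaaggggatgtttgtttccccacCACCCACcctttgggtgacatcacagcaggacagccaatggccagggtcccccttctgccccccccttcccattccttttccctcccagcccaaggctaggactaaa
Cldn19: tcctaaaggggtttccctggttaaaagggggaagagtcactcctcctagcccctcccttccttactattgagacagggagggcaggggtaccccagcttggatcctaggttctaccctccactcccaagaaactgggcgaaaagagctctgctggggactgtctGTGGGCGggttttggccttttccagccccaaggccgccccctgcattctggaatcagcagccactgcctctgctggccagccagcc
Gldn: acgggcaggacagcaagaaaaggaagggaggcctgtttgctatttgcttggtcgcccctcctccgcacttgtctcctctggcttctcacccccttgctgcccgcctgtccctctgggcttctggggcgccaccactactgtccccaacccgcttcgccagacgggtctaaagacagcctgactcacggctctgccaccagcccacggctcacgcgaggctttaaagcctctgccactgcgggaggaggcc
*Prx* and *Cldn19* hold 1 match each and *Gldn* none, and none of the 3 holds the SOX core ACAAAG on either strand. The EGR core is common: 28.1% of 32851 mouse promoters of this length hold it, and so do 5 of 16 promoters (31.25%) of the 9 genes found in the table among the 15 leading genes named further on. For ACAAAG the shares are 16.5% and 2 of 16. A match is a description of the letters and not a measured binding site.

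Among 21 transcription factors, *Egr2* was the only one called higher in every comparison. It stood at 173 and 201 CPM in members, 32.9 and 11.5 in non-myelinating Schwann cells, 9.61 and 9.60 in SGCs and 21.4 and 22.04 in *Pou3f1*-positive glia, with log2 fold changes of 3.17 ± 0.21, 4.28 ± 0.13 and 3.11 ± 0.16 (adjusted p of 9.4e-09, 9.8e-13 and 1.1e-09, edgeR). The 2 samples of non-myelinating Schwann cells differed from each other, yet both lay under the members, and the log2 fold change was 4.02 without replicate 1 of that class and 2.51 without replicate 2. The part of a response to dissociation in the level of *Egr2* was not tested. *Sox10*, the glial lineage factor, stood at 313 and 307 in members against 379 and 310.3, 235 and 217 and 327 and 309 and was not called in any comparison. *Notch1*, the receptor that holds back myelination, was lower in all 3 (-1.14, -1.64 and -1.22).

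Of the 21 factors 2, 4 and 2 were called higher and 4, 4 and 2 lower, with medians of 0.03, -0.08 and -0.03 beside those of 0.03, -0.01 and 0.00 over all genes. *Pax3* was lower against non-myelinating Schwann cells and higher against the other classes, but it stood at 0.781 and 1.56 CPM in members, and its comparison with SGCs, which had no UMI, gives at least 33.6-fold (3 counts over the group as the limit of a count of 0). *Srebf1*, the regulator of fatty acid synthesis, was at 43.9 and 45.5 against 115 and 126 in non-myelinating Schwann cells (-1.44 ± 0.08), whereas *Srebf2*, that of sterol synthesis, was not called.

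Sterol synthesis genes were lower in myelinating Schwann cells than in SGCs almost throughout. *Hmgcs1*, which opens the pathway, stood at 695 and 775 CPM in members, 241 and 294 in non-myelinating Schwann cells, 1946 and 2059 in SGCs and 458 and 561 in *Pou3f1*-positive glia. It was thus 2.73-fold higher than in non-myelinating Schwann cells (1.45 ± 0.10, adjusted p = 2.7e-08, edgeR) and 2.72-fold lower than in SGCs (-1.45 ± 0.09, adjusted p = 3.1e-09, edgeR). Of 23 genes of the pathway, 21 were lower in members than in SGCs and none higher, with a median of -1.71. The widest gap among the 23 was that of *Tm7sf2*, a sterol reductase, at 10.9 and 12.4 CPM against 143 and 143.

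Against non-myelinating Schwann cells 4 of the 23 were higher, *Hmgcs1* and *Idi1* among them, and none lower, with a median of 0.31. Against *Pou3f1*-positive glia 1 was higher and 1, *Dhcr7*, lower, with a median of -0.23. These are levels per UMI of a cell, and median UMIs per cell were 5164 and 5598 in members against 15954 and 16668 in SGCs.

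**Figure D2:**
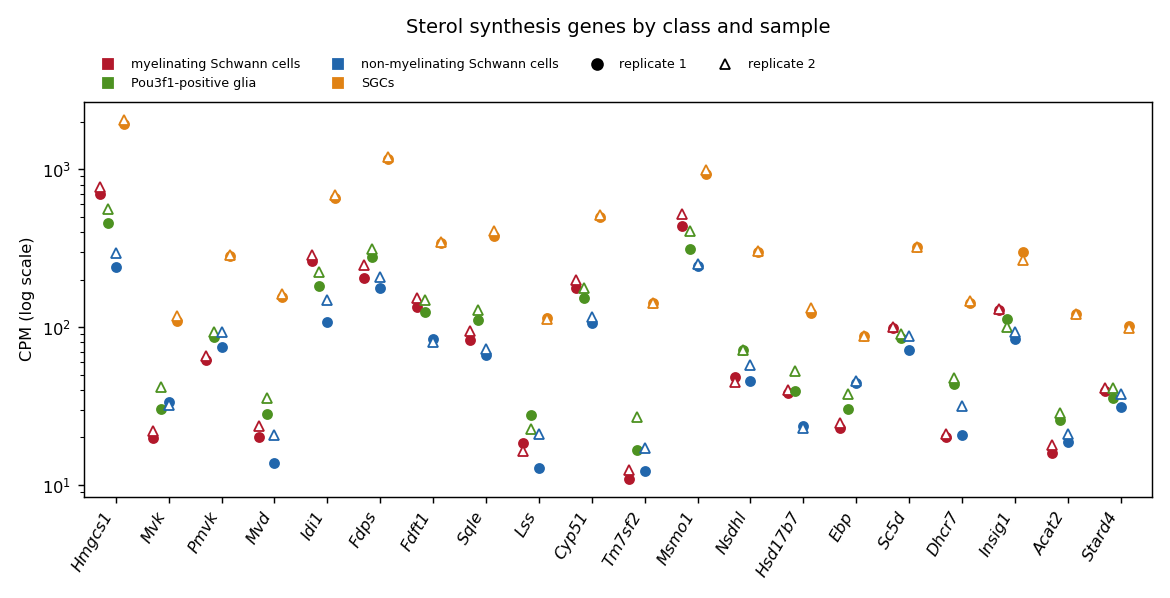
Levels of 20 of the sterol synthesis genes in 4 glial classes, in CPM on a log scale, with 1 point per class and sample. SGCs lie highest for each of these 20, and the myelinating Schwann cells lie below them, close to *Pou3f1*-positive glia.

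Among genes of fatty acid and sphingolipid synthesis, differences went both ways. *Ugt8a*, which makes galactosylceramide, stood at 531 and 561 CPM in members against 18.2 and 14.8, 38.5 and 36.7 and 41.6 and 44.5 in the other classes, or 33.5-fold, 14.5-fold and 12.7-fold. *Fa2h*, which hydroxylates the fatty acids of that lipid, stood at 271 and 292 against 6.39 and 8.91, 3.75 and 4.27 and 36.2 and 34.3. Those 2, with the elongase *Elovl7* and *Sptlc2*, a subunit of the first enzyme of sphingolipid synthesis, were called higher in all 3 comparisons. *Gal3st1*, which sulfates galactosylceramide, was called higher against SGCs alone (177 and 178 against 77.3 and 79.0 CPM). *Fasn*, *Acly* and *Scd2*, which make and desaturate common fatty acids, were called lower against SGCs alone, with *Scd2* still at 951 and 923 CPM in members. *Scd1*, another desaturase, was lower against SGCs and *Pou3f1*-positive glia, with 146 and 142 CPM against 999.8 and 901 in SGCs. Of the 22 genes 6, 5 and 4 were called higher and 3, 9 and 2 lower, with medians of -0.03, -0.63 and 0.05.

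Of 20 genes of inherited neuropathies found in the files, 8 were called higher in members against non-myelinating Schwann cells, 11 against SGCs and 7 against *Pou3f1*-positive glia, and none lower, with medians of 0.79, 1.18 and 0.61. They overlap the myelin lists in *Pmp22*, *Pmp2*, *Gjb1* and *Prx* among others, and the list of factors in *Egr2*. Beyond those, *Ndrg1*, a gene of vesicle traffic, stood at 1982 and 1946 CPM against 486 and 525, 900.3 and 875 and 525 and 545 and was higher in each. The lipid phosphatase gene *Mtmr2* was higher against non-myelinating Schwann cells and SGCs (1.95 and 1.43). *Sh3tc2*, *Sbf2* and *Litaf* were called against SGCs alone, at 1.33, 1.52 and 1.22.

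**Figure D3:**
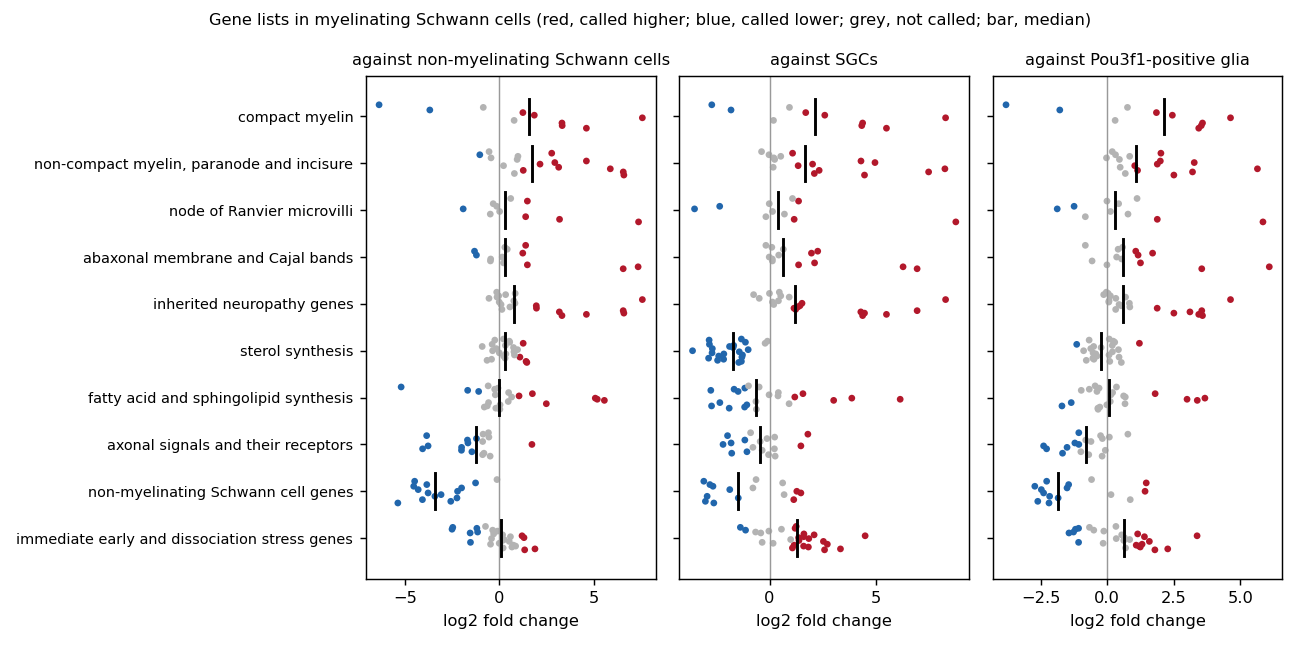
Log2 fold changes of the genes of 10 lists in myelinating Schwann cells against each of 3 other glial classes, with 1 point per gene (red, called higher; blue, called lower; grey, not called) and a bar at the list's median. Compact and non-compact myelin lie mostly to the right in every panel, sterol synthesis lies furthest to the left against SGCs, and the genes of non-myelinating Schwann cells lie mostly to the left.

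Beta subunits of an ion pump differed in opposite directions. Of the sodium pump, which restores ion gradients after firing, *Atp1b3* stood at 649.8 and 661 CPM in members against 67.3 and 65.3, 141 and 144 and 188 and 185, and was called higher in each comparison (3.31, 2.20 and 1.81). *Atp1b1*, another beta subunit, was lower in each, at 13.4 and 12.5 against 33.9 and 30.1, 148 and 151 and 97.1 and 100.2.

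Among potassium channels, *Kcnk1*, a background channel, stood at 158 and 174 CPM in members and at 0.492 and 1.11, 4.43 and 5.62 and 3.51 and 4.99 elsewhere, with log2 fold changes of 7.60 ± 0.26, 5.04 ± 0.10 and 5.30 ± 0.15 (adjusted p of 7.3e-12, 5.8e-15 and 1.5e-12, edgeR). The first became 8.38 without non-myelinating replicate 2 and 8.55 without the highest doublet scores. The voltage-gated *Kcna1* was shared by both Schwann cell classes (1415 and 1504 and 1523 and 1500.4) and was higher than in SGCs (67.8 and 69.5). *Gja1*, *Kcnj16* and *Slc1a2*, a connexin, an inward rectifier and a glutamate transporter of SGCs, were lower in all 3 comparisons. *Kcnj16* and *Slc1a2* had only 16 and 10 UMIs in all members. *Slc1a3*, a glutamate transporter that also stood among the SGC markers, went both ways. It was lower against SGCs, higher against non-myelinating Schwann cells and not called against *Pou3f1*-positive glia. Of the 25 genes 6, 6 and 5 were higher and 8, 11 and 7 lower, with medians of -0.16, -0.76 and -0.24.

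Receptors of axonal signals were lower in members more often than higher. *Adgrg6*, the adhesion receptor needed to start myelination, stood at 140.2 and 135 CPM against 366 and 387, 286 and 288 and 275 and 270.5 and was called lower against the first 2 classes. *Erbb3*, the receptor of neuregulin, stood at 177 and 187 against 329.8 and 345, 192 and 185 and 299 and 290.5 and did not reach the fold minimum. *Lgi4*, a ligand that Schwann cells secrete for myelination, and *Adam23*, of the family of its receptors, were lower against non-myelinating Schwann cells and *Pou3f1*-positive glia, with *Lgi4* at 109 and 99.6 in members against 430.1 and 404 and 309.8 and 282 in these. *Gpr37l1*, an orphan receptor of glia, was lower in all 3, with 178 and 194 in members against 661 and 639.9 in SGCs. Of the 17 genes 1, 2 and 0 were higher and 9, 6 and 7 lower, with medians of -1.21, -0.44 and -0.81.

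Of the ligands, *Fgf1*, a fibroblast growth factor, was higher in members in every comparison and *Ptn* and *Mdk* lower in every one. *Fgf1* stood at 145 and 141 CPM against 11.3 and 18.9, 15.7 and 15.6 and 11.3 and 7.90. Its log2 fold changes were 3.20 ± 0.15, 3.19 ± 0.08 and 3.89 ± 0.13 (adjusted p of 1.7e-10, 1.2e-13 and 6.1e-12, edgeR).

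*Cntf*, a factor that myelinating Schwann cells are known to store, was at 114 and 172 CPM in members and at 124 and 115 in non-myelinating Schwann cells, against 4.56 and 4.49 in SGCs and 9.98 and 12.9 in *Pou3f1*-positive glia. The samples of both Schwann cell classes overlapped, and only the other comparisons gave a call. *Ptn*, a heparin-binding growth factor, was at 133 and 134 in members against 1346 and 1320.0, 4201 and 3964 and 1570.4 and 1572, which is 10.0-fold, 30.7-fold and 11.8-fold lower. Of the 21 ligands listed 15 passed the filter on low counts, and of these 2, 4 and 4 were higher and 4, 4 and 4 lower, with medians of 0.27, -0.20 and 0.13. *Gdnf* and *Artn* had 1 UMI each in all members, and *Fgf5* had none.

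Genes called higher in all 3 comparisons with at least 50 CPM were ranked by the smallest of their 3 log2 fold changes, and the first 15 were *Filip1*, *Ddn*, *Ecscr*, *Sec14l5*, *Drp2*, *Col24a1*, *Sept3*, *Epha6*, *Gldn*, *Sema6c*, *Nfasc*, *Slc36a2*, *Cav1*, *Rasgef1a* and *Zmat4*. *Filip1*, which encodes a filamin-binding protein (chr9:79815051-80012851), led them with 598 and 649 CPM in members against 5.41 and 4.82, 1.85 and 1.93 and 6.66 and 8.32. *Slc36a2*, a transporter of small amino acids, stood at 431 and 421 against 1.47 and 1.86, 0.807 and 1.15 and 9.80 and 8.32. Of the 15, 3 (*Drp2*, *Gldn* and *Nfasc*) stood in a myelin list. The lists of compact myelin, non-compact myelin, node and abaxonal membrane held 10, 16, 10 and 13 of the 15681 tested genes, with some overlap.

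*Sec14l5*, of a family of lipid transfer proteins, and *Ddn*, dendrin, had no UMI in non-myelinating Schwann cells. Members held 97.3 and 111 CPM and 54.0 and 60.9 of them, at least 147-fold and at least 80.8-fold higher (3 counts over the group as the limit). *Ecscr* and *Cav1* are also known from endothelial cells. They stood at 109.7 and 115 and 109 and 119 in members, while the endothelial markers *Pecam1* and *Cdh5* stood at 3.24 and 1.66 and 2.34 and 1.87 and the list of 6 such markers summed to 30.3 and 30.5 CPM. Of these 6 markers 2, 3 and 3 were themselves called higher in members, and the part of endothelial RNA in both levels was not tested.

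Genes of non-myelinating Schwann cells were low in members. Of 15 such genes 14 were lower and none higher, with a median of -3.41, and the exception was *Sox2* (169.7 and 142 against 189 and 154). *L1cam*, the adhesion protein that keeps thin axons ensheathed, stood at 5.13 and 5.09 CPM against 209 and 213, or 41.3-fold lower (-5.37 ± 0.11, adjusted p = 5.2e-14, edgeR). *Cadm2*, another adhesion protein, stood at 151 and 158 against 2605 and 2591, while SGCs had 69.2 and 71.6. Against SGCs 8 of the 15 were lower and 3 higher (median -1.47), and against *Pou3f1*-positive glia 10 were lower and 2 higher (median -1.84).

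The 10 genes that fell furthest against non-myelinating Schwann cells were *Adamts12*, *Gfra3*, *Aldh1a1*, *Ntrk3*, *Gpnmb*, *Entpd2*, *C4b*, *Lgals3*, *Stk32a* and *Acvrl1*. *Gfra3*, the receptor subunit for artemin, stood at 0.223 and 0.935 CPM against 94.9 and 124, and SGCs and *Pou3f1*-positive glia were as low as members (0.338 and 0.342 and 0.370 and 0.624). *Ntrk3*, a neurotrophin receptor, stood at 2.90 and 3.53 against 476 and 474. *Entpd2*, which breaks down extracellular ATP, was lower against all 3 classes (-6.52, -4.55 and -2.20).

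Genes that mark repair Schwann cells after nerve injury differed in both directions. Of 18 listed, 12 passed the filter, and 0, 3 and 1 of these were higher and 6, 2 and 5 lower, with medians of -1.62, 0.46 and -0.81. *Gap43*, of axon growth, was higher against SGCs and *Pou3f1*-positive glia but lower against non-myelinating Schwann cells. *Shh* and *Gdnf* each had 1 UMI in all members and *Olig1* none. *Jun*, the factor that drives the repair state, was abundant (1988 and 2257 CPM), but it also belongs to the immediate early genes that dissociation of tissue induces.

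Immediate early genes, *Fos* among them, were in part higher in members. *Fos* stood at 5862 and 6692 CPM in members, 2982 and 2007 in non-myelinating Schwann cells, 985 and 1113 in SGCs and 1839.5 and 1792 in *Pou3f1*-positive glia. Of 26 genes of the list 4, 17 and 10 were higher and 6, 2 and 5 lower, with medians of 0.08, 1.31 and 0.63. Among the 26, *Klf2* rose furthest against SGCs, with 317 and 364 against 15.5 and 14.9. The heat shock genes *Hspa1a* and *Hspa1b* were lower than in non-myelinating Schwann cells (-1.55 and -1.15) and *Pou3f1*-positive glia (-1.44 and -1.26). The samples were all dissociated, so a state of the tissue and a response to dissociation cannot be told apart.

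Of 18 genes of the basal lamina and its receptors 3, 6 and 4 were higher and 1, 2 and 0 lower (medians 0.08, 0.43 and 0.39), with the integrin *Itga6* higher in all 3 (1.23, 1.97 and 1.70). Of 15 genes of lactate, glucose and creatine handling 4, 1 and 1 were higher and 1, 3 and 1 lower (medians 0.71, -0.44 and -0.13). *Ldhb*, which turns lactate into pyruvate, stood at 986 and 969 CPM in members and SGCs alike (975 and 956) and at 319 and 326 in non-myelinating Schwann cells. Among 8 proliferation genes none was called against the other Schwann cells or *Pou3f1*-positive glia, and *Top2a*, *Cdk1*, *Ccnb1*, *Ccnb2* and *Birc5* were lower than in SGCs. *Mki67*, which was not called, stood at 1.56 and 1.14 CPM in members.

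Endothelin genes are the subject of the study, and members carried less *Ednrb* than SGCs and *Pou3f1*-positive glia. *Ednrb*, the endothelin receptor of glia, stood at 160.4 and 132 CPM in members, 203 and 211 in non-myelinating Schwann cells, 1086 and 1101 in SGCs and 1847 and 1764 in *Pou3f1*-positive glia. That was 7.48-fold lower than in SGCs (-2.90 ± 0.08, adjusted p = 1.5e-13, edgeR) and 12.4-fold lower than in *Pou3f1*-positive glia, whereas the difference from non-myelinating Schwann cells (-0.50 ± 0.09) was under the fold minimum. Droplets without a cell held 587 and 544 CPM, above the members, and with the profile of such droplets subtracted the log2 fold change against SGCs was -3.45. At equal depth 10.1% and 9.06% of members had an *Ednrb* UMI against 59.3% and 61.6% of SGCs, and with all UMIs 36.6% and 37.6% against 99.2% and 98.6%.

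*Ece1*, which cleaves the endothelin precursors, was lower in each comparison (-1.94, -2.24 and -1.89), and so was *Ednra*, the other receptor, at 1.90 and 1.66 CPM. The ligands *Edn1* and *Edn2* had 8 and 2 UMIs in all members, and *Edn3* had none, which allows up to 0.157 CPM (3 counts over both samples, counting error only). These 3 did not pass the filter, and of the 4 that did, 3 were lower in each comparison (medians -1.76, -2.57 and -2.02), *Ece2* taking the place of *Ednrb* against non-myelinating Schwann cells.

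Markers of other cell types in the members were measured beside these results. The selection had limited *Fabp7*, *Scn7a*, *Prph*, *Col1a1*, *Rgs5*, *C1qa* and *Flt1* in members. Low levels of other markers of those cell types, and a low share of doublets, were thus in part fixed beforehand. The SGC markers, 9 genes of which *Slc35f1* was the most abundant, summed to 484 and 506 CPM in members against 5382 and 5469 in SGCs, and all 9 were lower in members than in SGCs. Against the other classes 5 and 7 of them were lower and 1 and 0 higher. Of 12 neuron markers 2, 2 and 4 were called higher and 1, 0 and 0 lower. They summed to 159 and 205 CPM, led by *Uchl1*, against 2102 and 4054 in droplets without a cell, so free neuronal RNA exceeded that in members. Of 6 fibroblast markers 1, 3 and 1 were higher and 3, 1 and 1 lower, and they summed to 578 and 656 CPM, of which *Col1a2* gave 435 and 433 and *Pdgfra* 0.893 and 1.04.

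*Mfap5*, a fibroblast microfibril gene, was higher in each comparison, with 55.4 and 95.2 CPM in members against 3.44 and 4.08, 1.09 and 1.61 and 1.85 and 2.29, while droplets without a cell held 64.5 and 66.5 and *Dcn* stood at 31.3 and 58.6 in members. The mural markers summed to 159 and 111 CPM, of which *Tagln* gave 84.4 and 71.9, and 2, 3 and 3 of 5 tested were higher and 0, 1 and 1 lower. *Acta2* and *Myh11* among them came mostly from replicate 1, with 235 and 138 UMIs there against 77 and 18 in replicate 2. In 1 cluster of members, cluster 2, they stood at 55.7 and 36.3 CPM in replicate 1 and 6.61 and 0.456 in replicate 2. The endothelial markers (2, 3 and 3 of 6 higher, led by *Kdr* at 10.5 and 11.9), the macrophage markers (0, 1 and 0 of 7 higher, 1, 0 and 0 lower, summed 21.0 and 27.2 CPM, led by *Cd74*) and the erythrocyte markers (0, 4 and 0 of 5, led by *Hbb-bs* at 17.0 and 10.6) were at low levels. Of 10 oligodendrocyte markers, *Mog*, *Olig1* and *Olig2* had no UMI in members and *Aspa* alone was above 2 CPM (228 and 219.8). Of the 3 that passed the filter 0, 1 and 0 were higher and 2, 1 and 1 lower, and *Aspa*, aspartoacylase, was lower in each comparison. As the median ratio of 6 marker lists between members and droplets without a cell, free RNA was estimated at 10.5% and 8.53% of the members' UMIs. The ratios of single lists ranged from 0.0174 for erythrocytes to 0.309 for mural cells in replicate 1 and from 0.0358 for macrophages to 0.321 for mural cells in replicate 2, so the estimate is loose. By the same ratio it was 3.57% and 3.32% in SGCs, 3.73% and 4.14% in *Pou3f1*-positive glia and 3.81% and 12.7% in non-myelinating Schwann cells, lower than in members except in the last sample. Of the members 2.16% and 1.39% were among the 8% of barcodes with the highest doublet scores, against 10.3% and 9.71% of SGCs. The part of these in single calls was not tested beyond the alternatives described with the processing.

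Members also differed among themselves. Clustering of the cells at 1000 UMIs each gave 4 clusters, described here by their leading genes without a test, since the same genes made the clusters. The first 3 held 828, 1041 and 1088 cells, and their shares were 33.6%, 33.2% and 31.8% in replicate 1 and 21.9%, 36.4% and 40.9% in replicate 2. Each was present in both samples, with the first one smaller in replicate 2. Cluster 4 held 35 cells, 22 and 13.

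Cluster 1 had the highest mitochondrial share, with a median of 11.99% against 9.11% and 6.01% in clusters 2 and 3, and was led by *Camk1d*, *Lars2* and mitochondrial genes. Its *Fos* level was 1089 and 1283 CPM, against 7581 and 8180 in cluster 2 and 8389 and 7420.5 in cluster 3. Both samples thus showed the lowest *Fos* level of these 3 clusters in cluster 1. Cluster 2 was led by *Hes1*, a target of Notch signals (609 and 576 CPM against 154 and 147 in the other members), and by *F3* and *Peli1*. Cluster 3 was led by *Mfap5* (110 and 221 CPM against 34.3 and 24.8), *Btg2* (541 and 431 CPM) and *Vat1l*.

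Levels of myelin genes differed between these 3 clusters to unequal degrees, which was not tested. *Mbp* stood at 7432 and 7768 CPM in cluster 1, 6395 and 6934 in cluster 2 and 6927 and 7409.6 in cluster 3, and *Prx* lay between 1024 and 1198 CPM in all 3. *Mpp6* stood at 751 and 748 CPM in cluster 1 and 806 and 799.5 in cluster 2 but at 406 and 381 in cluster 3, whereas *Drp2* was highest in cluster 3, at 693 and 692 against 445 to 493 in the other two. *Cntf* stood at 120 and 147 CPM in cluster 1, 62.4 and 66.1 in cluster 2 and 179 and 321 in cluster 3. *Egr2* was lower in cluster 1, at 103 and 106 CPM, than in clusters 2 (182 and 227) and 3 (234 and 211). So were *Fos* and another immediate early gene, *Egr1*. The latter stood at 71.1 and 90.6 CPM in cluster 1, 909 and 1007 in cluster 2 and 976 and 780 in cluster 3.

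Cluster 4 stood apart. Its cells had a median of 16668 UMIs and a median doublet score of 0.277 against at most 0.0249 in the other clusters, and among its leading genes were *Ptn*, *Ptprz1*, *Apoe* and *Ednrb*, which are known from SGCs. *Ednrb* stood there at 1162 and 1027 CPM against 111 and 108 in the other members, and *Mbp* at 2889.9 and 3107. Without these 35 cells the calls tried did not change, but the log2 fold change of *Ednrb* against non-myelinating Schwann cells went from -0.50 to -0.88.

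**Figure D4:**
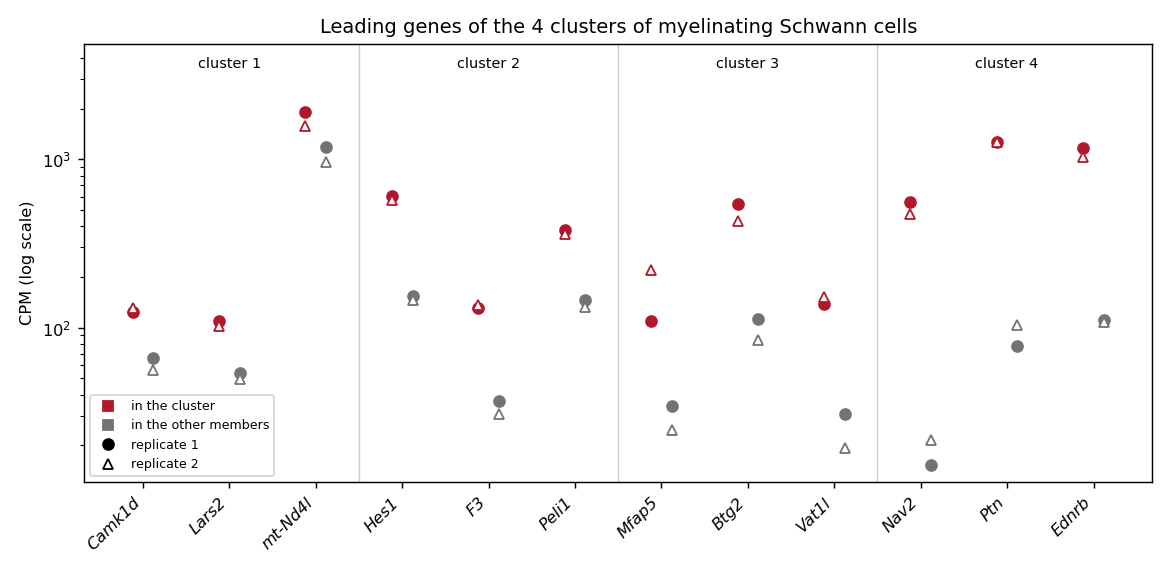
Levels of 3 leading genes of each of 4 clusters of myelinating Schwann cells, in CPM on a log scale, in the cells of the cluster (red) and in all other members (grey), with 1 point per sample. In each pair the cluster lies above the other members in both samples, which is how leading genes were chosen, and the gap is narrowest in cluster 1.

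Within the members, single cells spread widely around these sums. *Mbp* ranged from 7.59 to 171 UMIs per 10000 in replicate 1 with a median of 66.1, and from 7.19 to 317 with a median of 68.5 in replicate 2, and no member lacked it. *Fos* had a median of 40.5 and 54.3 UMIs per 10000, with 231 and 131 cells at 0. Levels also moved with depth. Split by UMIs per cell into 3 equal parts, the shallowest cells held 694 and 709 CPM of *Cldn19* and the deepest 549.8 and 532, whereas *Ednrb* was at 80.4 and 82.7 in the shallowest and 206 and 158 in the deepest. *Pmp2* moved in the direction of *Ednrb*, with 14.8 and 23.9 in the shallowest cells and 56.9 and 60.1 in the deepest.

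*Pmp2*, a fatty acid binding protein of myelin (chr3:10179851-10183929), is known from a subset of myelinating Schwann cells. It stood at 39.6 and 43.0 CPM in members, 0 and 0.371 in non-myelinating Schwann cells, 0.104 and 0.147 in SGCs and 2.03 and 1.25 in *Pou3f1*-positive glia, and was called higher in each comparison. The log2 fold change was 8.26 against SGCs and 4.63 against *Pou3f1*-positive glia, and the single UMI of non-myelinating Schwann cells gives a ratio of 174 with a counting interval from 31.2 to 6893. At equal depth 2.57% and 2.84% of members, 38 and 43 cells, had a *Pmp2* UMI, against 0% and 0.0376% of SGCs, and with all UMIs 12.3% and 13.8% against 0.155% and 0.226%. The cells with a UMI at equal depth lay in all 4 clusters, with 20 and 12 in cluster 1, 9 and 14 in cluster 2, 8 and 16 in cluster 3, and 1 and 1 in cluster 4. They made up 4.02% and 3.63% of cluster 1, 1.83% and 2.55% of cluster 2, 1.70% and 2.59% of cluster 3 and 4.55% and 7.69% of the few cells of cluster 4, and these shares were not tested against each other.

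Cells with and without that UMI were compared in the same kind of fit, with the other classes kept in it and *Pmp2* left out. The split was made at equal depth, so cells without the UMI could still hold *Pmp2*. With all UMIs they held 243 and 282 *Pmp2* UMIs, against 112 and 132 in the cells with it. The comparison thus does not set apart cells that lack *Pmp2*. Of 15665 genes 28 (0.179%) were called higher and 5 (0.0319%) lower, and the median log2 fold change of all genes was -0.14. With the replicate as a block 60 were called. The core of the sheath did not pass the test: *Mbp* stood at 7317 and 6937 CPM in the cells with the UMI and 6757 and 7204 in those without, and *Mbp*, *Pmp22* and *Prx* lay between -0.05 and 0.03 on the log2 scale.

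The 10 largest changes were those of *Cldn3*, which had no UMI in the 38 and 43 positive cells against 22.5 and 20.7 CPM in the others, and of *S100a8*, *Hdc*, *S100a9*, *Il1r2*, *Retnlg*, *Nlrp3*, *Clec4d*, *Pik3ap1* and *Slpi*. *S100a8* and *S100a9*, genes of neutrophils, had 246 UMIs each in replicate 2 and 2 and 1 in replicate 1. For each of the 9 genes called higher, all UMIs of the positive cells of replicate 2 lay in 1 cell. These 10 genes thus describe single cells or absent counts, and fitted values beside a count of 0 depend on the prior count of the fit.

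Of the 33 called genes 18 had at least 5 UMIs in the positive cells of both samples, 14 higher and 4 lower. Some of the 14 still rested largely on 1 cell per sample. The highest cell held 16 of 16 and 9 of 9 UMIs of *Gria4* in replicates 1 and 2. For *Anks1b* it held 58 of 58 and 23 of 24, and for *Them5* 7 of 7 and 6 of 11. The lowest adjusted p was that of *Spp1*, osteopontin, at 484 and 888 CPM in the positive cells against 77.0 and 125 in the others (2.79 ± 0.23, adjusted p = 1.5e-05, edgeR). Both positive values lay above both others, but 1 cell held 250 of the 311 UMIs in replicate 2, and without the highest cell of each sample 348 and 191 CPM without TMM scaling were left. *Otop1*, a proton channel gene (124 and 79.9 against 24.96 and 27.9 CPM), *Erbb4*, a neuregulin receptor (196 and 246 against 62.7 and 96.6), and *Cntf* (268 and 374 against 107 and 162) were higher too. For *Cntf*, 1 cell held 40 of 78 UMIs in replicate 1 and 1 cell 47 of 131 in replicate 2. Without these cells 141 and 263 CPM without TMM scaling were left, against 106 and 161 in the cells without the UMI. *Nlgn1*, an adhesion protein (54.9 and 71.4 against 175 and 164), and *Pros1*, a ligand of TAM receptors (37.8 and 48.5 against 116 and 108), were lower. *S100b* was at 1335 and 1033 against 605 and 622 CPM, a log2 fold change of 0.94 ± 0.11 that missed the fold minimum. Cluster 1 also had the highest levels of *S100b* (843 and 821 CPM against 486 to 680 in clusters 2 and 3) and of *Otop1* (47.8 and 42.8 against 17.5 to 33.4), and the part of the clusters in these differences was not tested. When members with any UMI of the 6 excluded marker genes were left out, *Spp1*, *Otop1*, *Erbb4*, *Cntf* and *Pros1* lost their calls. The log2 fold change of *Cntf* went from 1.27 to 0.09 and that of *Spp1* from 2.79 to 1.16, whereas *Otop1* went from 1.92 to 1.64, *Erbb4* from 1.48 to 1.16 and *Pros1* from -1.36 to -1.15. With the split made after thinning to 2000 UMIs *Nlgn1* and *Pros1* lost theirs, with log2 fold changes of -0.66 in place of -1.41 and of -0.72. *Erbb4* and *Pros1* also lost their calls without the positive cells of either sample (1.63 and -1.20 without replicate 1, 1.29 and -1.57 without replicate 2), and *Cntf* without those of replicate 2 (0.99).

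**Figure D5:**
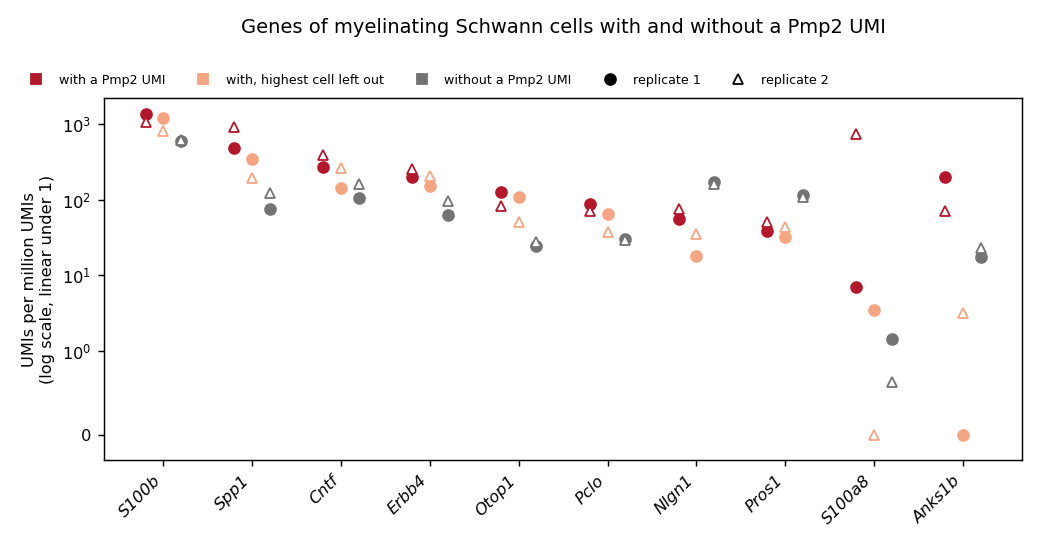
Levels of 10 genes in myelinating Schwann cells with a *Pmp2* UMI at equal depth (red) and in those without one at equal depth (grey). Orange marks the cells with that UMI after the highest cell was left out. The cells in grey could still hold *Pmp2* when all UMIs were counted. Levels are in CPM without TMM scaling, with 1 point per sample. The scale is logarithmic above 1 and linear below. *S100a8* in replicate 2 drops to 0 without 1 cell, *Anks1b* drops below the other cells, and *Otop1* and *Erbb4* stay above them in both samples.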

How the data were processed

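The authors deposited gene by barcode matrices of UMI counts for 2 samples of single-cell RNA-seq (10x Genomics), which had been made per the file headers with Cell Ranger 7.1.0 and per the labels on mm10. These counts were not normalized. Cell Ranger counts reads that map to 1 gene only, so near-identical or overlapping genes may be undercounted. The samples held 1762921 and 1832899 barcodes, of which 8366 and 8516 had over 300 genes, at least 1000 UMIs and up to 22% mitochondrial UMIs. Of 32285 gene IDs 32235 were found in GENCODE vM21 for positions.

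Cells were assigned to classes by marker UMIs, and doublets were not removed but were scored. Raw counts were summed per class and sample, and a gene was tested where 2 or more of the 8 sums held 10 or more of its counts, with edgeR 4.0.16 (TMM, glmQLFit and glmQLFTest, R 4.3.3) with 1 coefficient per class and no covariate. The comparison by *Pmp2* UMI used 10 sums, after each cell had been thinned to 1000 UMIs to decide whether it held one. Genes were called at a Benjamini-Hochberg adjusted p under 0.05 and a log2 fold change of at least 1 in size, and the 10 selecting genes were left out. Genes were named where they stood in 1 of 26 lists, were among the 15 with the largest smallest log2 fold change over the 3 comparisons (called in all, at least 50 CPM), the 10 that fell furthest against non-myelinating Schwann cells, or the 10 with the largest change by *Pmp2* UMI. Predicted genes were not named. Leading genes of clusters and the other genes of the comparison by *Pmp2* UMI were chosen after their values were seen. The members, the lists and the tests were chosen with earlier results of these data known.

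Equal-numbered sums come from the same suspension. The deviations of members from their class mean correlated with those of equal-numbered sums at 0.0560 (non-myelinating Schwann cells), 0.109 (SGCs) and 0.104 (*Pou3f1*-positive glia) over 15691 genes. Members were clustered with scanpy 1.11.5 (Leiden, resolution 0.5, 2000 variable genes, 20 components). The alternatives were DESeq2 1.42.0, no TMM, no filter on counts, a replicate block, stricter or other selections of cells, removal of the 8% of barcodes with the highest doublet scores, subtraction of the profile of droplets without a cell, thinning to 2000 UMIs, no fold minimum, and leaving out each sum in turn. After seeing the data, leaving out the smallest cluster and counting only genes with at least 5 UMIs in the positive cells of both samples were added. Droplets without a cell were the barcodes ranked 45000 to 90000 by UMIs. Some genes of the lists are counted but not reported singly here.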

Additional observations from a re-analysis of the deposited data

How the results depend on the processing

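The counts of genes called against the 3 other classes kept within 1.5 times under each alternative except dropping the fold minimum, which gave 6533 genes against non-myelinating Schwann cells, 10095 against SGCs and 6608 against *Pou3f1*-positive glia. Leaving out 1 sum at a time gave 2698 to 2974, 3794 to 4101 and 2415 to 2489 genes. Without TMM the median log2 fold change of all genes went from 0.03 to -0.13 against non-myelinating Schwann cells and from -0.01 to 0.10 against SGCs, and no direction changed among the single genes tried. With the profile of droplets without a cell subtracted, log2 fold changes against the other classes that moved by over 1.5 times moved away from 0, such as that of *Drp2* against non-myelinating Schwann cells from 7.33 to 15.98, but values fitted beside a count of 0 depend on the prior count.

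The 33 genes called by *Pmp2* UMI were the least stable. They became 116 with DESeq2, 53 with the profile of droplets without a cell subtracted, 146 with no filter on counts, 63 after thinning to 2000 UMIs, 14 without cells holding a UMI of other markers, 15 without the highest doublet scores and 18 with at least 5 UMIs in both samples. With the replicate block, by which sums of the same suspension are paired, 60 genes were called. The block changed no call of a single gene that was tried and kept the counts of the other comparisons within 1.5 times. Leaving out 1 sum gave 11 to 42, with 11 without the negative cells of replicate 1 and 13 without those of replicate 2. The cause was not tested.

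Of 1009 values of single genes over 77 results, 990 kept their call and direction, 19 lost their call and 0 were reversed, and all 19 belonged to the comparison by *Pmp2* UMI. *Pclo* lost its call whichever sum was left out, although its log2 fold change of 1.34 stayed between 1.19 and 1.51. The number of members was 1937 with a mitochondrial share of up to 10%, and between 2047 and 3151 with the other selections. With 2 samples of one condition, no difference between conditions or animals could be tested.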
